A study of Drosophila melanogaster with 6 samples.

Results

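The general cytoplasmic ribosomal protein genes of Drosophila were compared between female germline stem cells and a cultured cell line. The genes were chosen by their symbols in the platform annotation (RpS, RpL or RpLP followed by a number), each from a probe set that named only that gene, and 8 genes were left out beforehand: RpS5a, RpS5b, RpL22, RpL22-like, RpS10a, RpS10b, RpS19a and RpS19b, which are pairs of related copies, some of them germline-enriched. This gave 33 genes, 12 of the small and 21 of the large ribosomal subunit, among 10844 genes that the array named singly. Each of the 33 had 1 such probe set, so no choice among probe sets was needed. The same rule finds 84 genes in the RefSeq gene table (32 small, 52 large), so 51 general ribosomal protein genes, RpL5, RpL11, RpS3 and RpS6 among them, were not analysed here. There were 3 arrays of GSC, which are germline stem cells isolated from ovaries of bam mutant females, and 3 arrays of Kc, a tissue culture line derived from embryos. The labels do not name the bam allele or the isolation method, and they do not say whether arrays of a group came from separate dissections or cultures. Mutant bam ovaries fill with stem-cell-like germ cells that do not differentiate, so GSC here are cells without bam function and not stem cells of a normal ovary. Kc cells were the only baseline, so higher and lower mean relative to Kc.

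The ribosome translates messenger RNA. Its small subunit binds the message and reads the codons, and its large subunit joins amino acids and releases the growing chain through an exit tunnel. Each ribosomal protein is normally present once per ribosome, apart from the acidic stalk proteins RpLP1 and RpLP2, and growing cells make the proteins in balanced amounts. In Drosophila, loss of a single copy of many of these genes slows growth and gives the Minute phenotype, and germline stem cells are known to depend on high ribosome production.

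The arrays were scaled by the authors to a common trimmed mean, but they differed in RNA controls. For actin the 3' control probe set was 4.58 ± 0.313 times as bright as the 5' one in GSC, whereas in Kc this factor was 1.85 ± 0.0789 (SD over 3 arrays). The contrast was smaller for GAPDH (5.23 ± 0.764 in GSC, 3.62 ± 0.265 in Kc) and eIF-4a (6.05 ± 0.916 and 3.61 ± 0.296). The groups did not overlap in any of these factors, and their part in the values below was not tested. The geometric mean signal of the 9 hybridisation controls was 2113, 2884 and 3753 in GSC replicates 1 to 3, and the Kc replicates had 4302, 3746 and 3636. Defining markers fitted the labels. All 6 germ cell markers were called higher in GSC, where their summed signal was 30355 to 32974 against 310.9 to 380.0 in Kc, and all 5 hemocyte markers, which Kc cells carry, were called lower (428.2 to 593.5 against 31947 to 37908). The 6 measured markers of ovarian somatic cells summed to 104.4 to 208.4 in GSC and 126.1 to 169.6 in Kc, with 0 called by limma. The 3 of muscle summed to 233.0 to 351.5 and 392.0 to 582.2, also with 0 called. The 4 yolk and eggshell markers were all called higher in GSC (2418 to 2814 against 393.9 to 676.7), and their part in the results was not tested. In such bulk samples, fewer cells of a type and less RNA per cell cannot be told apart.

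Ribosomal protein transcripts gave some of the brightest signals on the arrays in both kinds of cells. Of the 33 genes, 26 had a mean signal above 10000 over the 6 arrays, against a median of 164.2 in GSC and 153.0 in Kc over all 13966 probe sets tested. All 26 were among the 100 brightest probe sets, 54 of which do not name exactly 1 gene here. RpS7, a small subunit protein, had the highest mean of the group, with 45820, 43589 and 51568 in GSC replicates 1 to 3 against 62440, 48575 and 47874 in Kc replicates 1 to 3, the order used throughout. The brightest of the large subunit was RpLP1, an acidic protein of the stalk that recruits translation factors, with 42850, 40470 and 51952 in GSC and 64186, 40472 and 45722 in Kc. For both genes the GSC and Kc arrays overlapped, and Kc 1 was the highest array. The 33 genes together held 8.45% ± 0.381 of the summed GSC signal and 8.06% ± 0.894 of the summed Kc signal (SD over 3 arrays), and the groups overlapped. The signal of a probe set also depends on its own probes, so the order of genes by signal is an order of signals and not of RNA amounts.

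**Figure D1:**
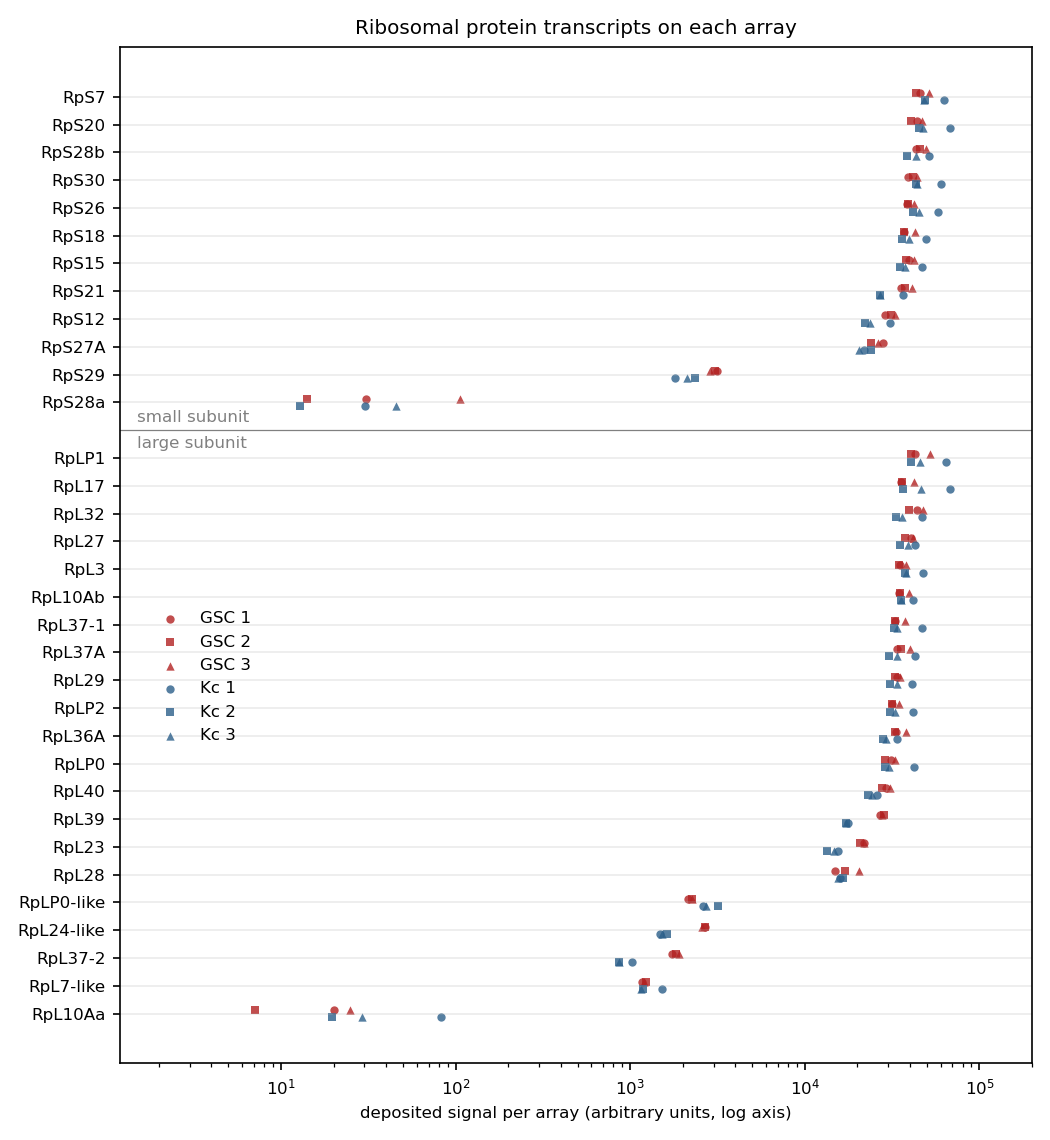
Deposited signal of each of the 33 ribosomal protein genes on each array, on a log axis, with small subunit genes above and large subunit genes below; red points are the 3 GSC arrays, blue points the 3 Kc arrays, and the shape gives the replicate. Most genes lie above 10000 in both groups with overlapping colours, whereas RpL10Aa and RpS28a lie at or below 105.5 on every array.

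The other 7 genes were dimmer. RpS29, a zinc-binding protein of the small subunit head, ranged from 1810 to 3152. RpL37-2, RpL24-like, RpL7-like and RpLP0-like lay between 859.8 and 3187. RpL10Aa (7.1 to 82.1) and RpS28a (12.8 to 105.5) were at the low end of the array, at mean percentiles of 11.8 to 24.8 over all probe sets. Of these 7, all except RpS29 are extra copies or relatives of a ribosomal protein gene.

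None of the 33 genes passed the call of an adjusted p under 0.05 with a fold of at least 2. By limma 0 were higher and 0 lower, whereas 19.8% of all probe sets tested were called (11.7% higher, 8.11% lower). At an unadjusted p under 0.05 and any fold, 9 were higher and 1 lower, against 41.8% of all probe sets (23.9% higher, 17.9% lower). At an adjusted p under 0.05 and any fold, 6 were higher (RpL37-2, RpL24-like, RpL39, RpL23, RpS29 and RpL40), 1 was lower (RpLP0-like) and 26 passed neither way, so that 21.2% passed against 34.5% of all probe sets (20.1% higher, 14.3% lower). With a fold of at least 1.5 added, 3 were higher (RpL37-2, RpL24-like and RpL39) and 0 lower, against 30.6% of all probe sets (18.1% higher, 12.5% lower). The signals of the 2 groups did not overlap for 8 genes, 7 with higher and 1 with lower GSC signals. This was 24.2% of the 33 genes, against 45.4% of all probe sets (25.7% higher, 19.7% lower). The median log2 fold of the 33 genes was 0.01, beside 0.03 for all probe sets, and folds ran from -0.50 to 0.96, beside -7.91 to 7.15.

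The folds in signal were also measured closely enough to limit their size, which does not by itself limit folds in RNA amount. For 30 of the 33 genes the 95% interval of the log2 fold lay wholly between -1 and 1, which held for 47.8% of all probe sets and 57.7% of the 673 other probe sets in the brightest 5%. The 3 exceptions were RpL10Aa, RpS28a and RpL37-2. The median SE was 0.121 for the 33 genes, 0.112 for the other bright probe sets and 0.229 for all probe sets. The median absolute log2 folds were 0.192, 0.582 and 0.419. Against the other bright ones the larger share thus went with smaller folds and not with smaller errors. For all 26 genes above 10000 the interval stayed inside this range. Their median signal was 36423 in GSC and 37757 in Kc, against 4420 and 5188 for the other bright ones. These sets were thus not matched in brightness, and its part in the shares was not tested. Only the 33 genes were taken out of the other bright set, so it can hold further ribosomal protein genes. The folds were within 1.5 for 90.9% of the ribosomal protein genes, 61.5% of all probe sets and 50.1% of the other bright ones. These shares hold for the authors' scaling, and another scaling moves all genes together, as given further on.

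**Figure D2:**
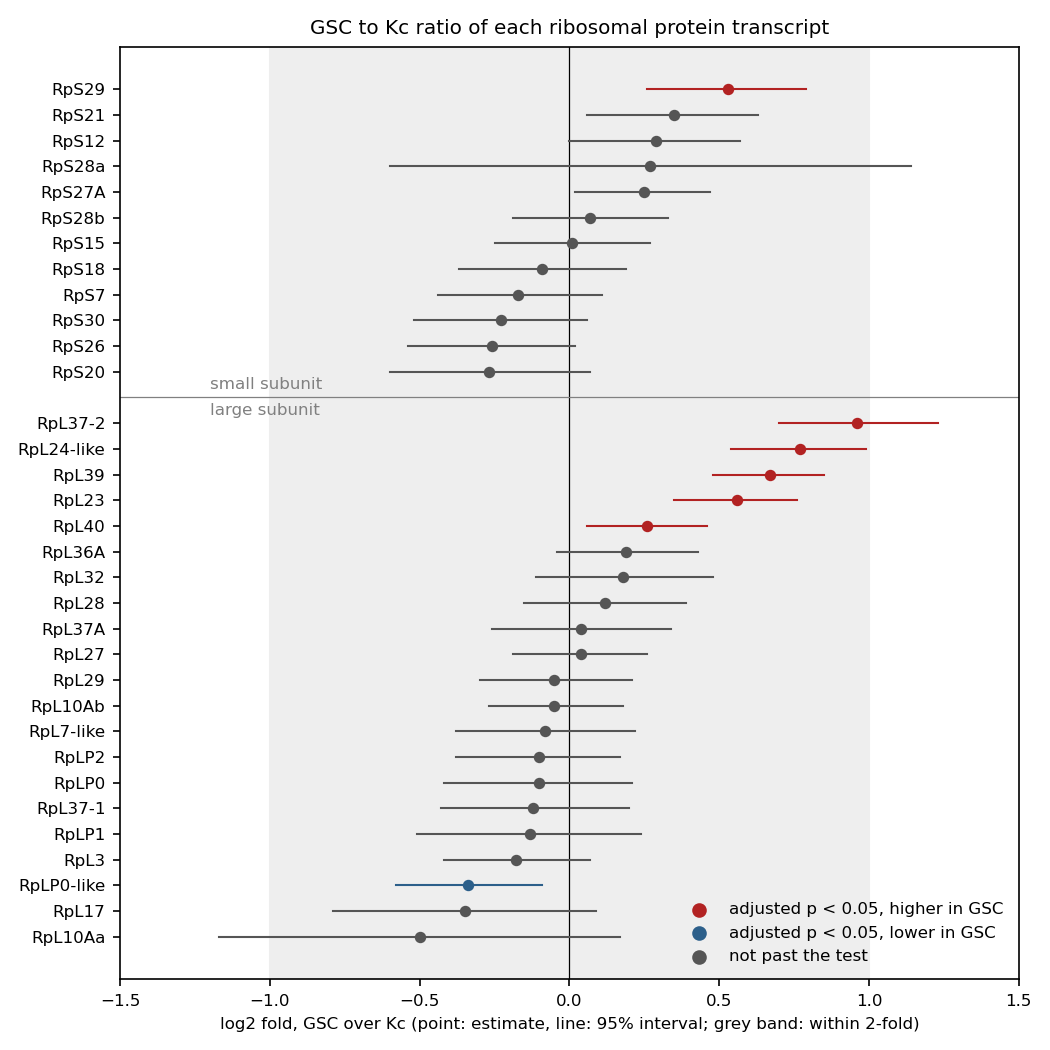
Log2 fold of GSC over Kc for each gene (point) with its 95% interval (line), small subunit above and large subunit below; the grey band marks a change within 2-fold. RpL37-2 at 0.96 and RpL24-like at 0.77 lie farthest to the right, and only RpL10Aa, RpL37-2 and RpS28a have intervals that leave the band.

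Among the 12 small subunit genes, RpS29 alone passed the test at any fold (8.33%, against 34.5% of all probe sets). The median log2 fold was 0.04. RpS29 had 3152, 3068 and 2855 in GSC against 1810, 2362 and 2119 in Kc. Every GSC array was above every Kc array, and the log2 fold was 0.53 ± 0.119 (SE; limma adjusted p = 0.00631). Of the 12 proteins of the subunit's head that were listed, 8 were measured, and the other 7 of these did not pass. RpS12, which in Drosophila takes part in the cell competition that removes Minute cells, had 28938, 30955 and 32636 against 30645, 22234 and 23540, a log2 fold of 0.29 (adjusted p = 0.114). Here Kc 1 lay inside the GSC range and the other 2 Kc arrays below it, and without Kc 1 the gene passed (0.43, adjusted p = 0.00294). RpS15, whose tail reaches the decoding site, had equal group means, 39922 ± 2159 and 39929 ± 6178 (95% interval of the log2 fold -0.25 to 0.27).

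RpS20, also of the head, had the lowest log2 fold of the subunit, -0.27, with 43947, 40320 and 46733 in GSC and 67555, 45219 and 47246 in Kc. Kc 1 was far above the other arrays, and the difference did not pass (adjusted p = 0.214). RpS27A, made as a fusion with ubiquitin, had 27883, 24083 and 26397 against 21766, 23916 and 20344. Its groups did not overlap, but the log2 fold of 0.25 missed the threshold (adjusted p = 0.0852). RpS21, a protein of the small subunit whose loss overgrows larval blood tissue in Drosophila, had a log2 fold of 0.35 (adjusted p = 0.0607), with 1 Kc array inside the GSC range. RpS26, which contacts the message at its exit, and RpS30 had -0.26 and -0.23. RpS7, RpS18 and RpS28b lay between -0.17 and 0.07, and none of these passed.

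The 21 large subunit genes had a median log2 fold of -0.05, with 5 higher, 1 lower and 15 neither at an adjusted p under 0.05. Thus 28.6% passed at any fold, against 34.5% of all probe sets (20.1% higher, 14.3% lower). RpL39, a very small protein that lines the exit tunnel, had 27088, 28250 and 27585 in GSC against 17671, 17243 and 17304 in Kc. The arrays of each group lay close together and far from the other group, and the log2 fold was 0.67 ± 0.0808 (adjusted p = 0.000132). RpL17, which sits at the rim of the same tunnel, went the other way in its mean without passing (log2 fold -0.35 ± 0.195, adjusted p = 0.216). It had 35705, 36249 and 42422 against 67802, 36317 and 46216, where Kc 2 was inside the GSC range and Kc 1 was by far the highest. Without Kc 2 it passed as lower (-0.56, adjusted p = 0.0361). These were the 2 measured of 7 listed proteins of the tunnel.

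RpL23, a protein on the face that meets the small subunit, had 21730, 20736 and 21742 in GSC and 15592, 13408 and 14603 in Kc. No array overlapped, and the log2 fold was 0.56 ± 0.0914 (adjusted p = 0.000888). RpL40, which like RpS27A is made as a ubiquitin fusion, had 29154, 27626 and 30750 against 25875, 22913 and 24212. Its groups were also apart, but by less, with a log2 fold of 0.26 ± 0.0903 (adjusted p = 0.0485) that passed in 7 of 17 alternative settings and did not pass when any single array other than Kc 1 was left out. RpL39, RpL23, RpL24-like and RpL37-2 passed in all 17. RpL23 and RpL39 were singled out after their values were seen.

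The stalk proteins RpLP0, RpLP1 and RpLP2 had nearly the same log2 folds, -0.10, -0.13 and -0.10, and none passed (adjusted p from 0.583 to 0.646). The fourth listed, RpL12, was not analysed here. RpLP0, the base of the stalk, had 31251, 28973 and 32918 against 42261, 28931 and 30273, so that the difference in means came with Kc 1. RpL3, a large protein near the peptidyl transferase centre, had a log2 fold of -0.18 (adjusted p = 0.267). RpL32, known as rp49 and widely used as a reference gene in fly expression work, had 43890, 39740 and 47422 against 46763, 33502 and 36095. Its log2 fold was 0.18 with a 95% interval of -0.11 to 0.48, and 1 Kc array lay inside the GSC range. RpL10Ab, of the stalk that moves with the outgoing tRNA, RpL27, RpL28, RpL29, RpL36A and RpL37A had log2 folds between -0.05 and 0.19, and none of these passed.

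Of the extra copies RpL37-2, RpL10Aa and RpS28a, RpL37-2 passed the test at any fold and the others did not. RpL37-2 had 1726, 1823 and 1899 in GSC and 1024, 859.8 and 863.8 in Kc. Every GSC array was above every Kc array, and its log2 fold of 0.96 ± 0.118 (adjusted p = 0.000143) was just under the fold minimum, while its partner RpL37-1 had -0.12 (adjusted p = 0.597). Within each array RpL37-1 was brighter by 4.24 ± 0.061 log2 units in GSC against 5.35 ± 0.147 in Kc (SD over 3 arrays), a contrast that a single scaling factor per array does not touch, and the groups did not overlap. RpL10Aa had 20.2, 7.1 and 24.7 against 82.1, 19.6 and 29.3, and RpS28a had 30.5, 14.1 and 105.5 against 30.4, 12.8 and 45.6. The groups overlapped for both copies, whereas their partners RpL10Ab and RpS28b had mean signals of 37051 and 45365. How far the probe sets tell such copies apart was not tested.

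Relatives of ribosomal proteins that in yeast act in subunit assembly were measured beside them. RpL24-like, the relative of yeast Rlp24, had 2680, 2686 and 2576 in GSC against 1475, 1621 and 1528 in Kc. The groups were well apart, with a log2 fold of 0.77 ± 0.0988 (adjusted p = 0.000196). RpLP0-like, the relative of yeast Mrt4, had 2132, 2272 and 2274 against 2600, 3187 and 2709, and was the gene that passed downward. Its log2 fold of -0.34 ± 0.109 (adjusted p = 0.038) passed in 6 of 17 alternatives, not when any single array other than Kc 1 was left out, and was 0.11 with scaling to the hybridisation controls. RpL7-like, the relative of yeast Rlp7, had a log2 fold of -0.08 (adjusted p = 0.714). Without these 3 relatives, 5 genes were higher and 0 lower at an adjusted p under 0.05, beside 20.1% of all probe sets higher and 14.3% lower.

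The general ribosomal protein genes moved together from array to array within each group. Of the 26 genes above 10000, 24 had their highest Kc signal on Kc 1, and 24 had their highest GSC signal on GSC 3. The median signal of all 33 genes was 33202, 32789 and 37442 in GSC against 41801, 30279 and 32961 in Kc. Kc 1 thus stood above the other 5 arrays, and GSC 3 above the other GSC arrays. These 2 arrays also had the highest hybridisation control signals of their groups, and their part in this was not tested. Of the 673 other bright probe sets, 54.7% had their highest Kc signal on Kc 1 and 47.5% their highest GSC signal on GSC 3. Without Kc 1, 10 of the 33 genes were higher and 1 lower at an adjusted p under 0.05 and any fold. The share of all probe sets at any fold is not given without Kc 1, so this count is not read as particular to these genes. Without Kc 1 RpL37-2 passed the fold minimum (log2 fold 1.04), beside 1585 of all 13966 probe sets called higher at 2-fold and 1132 lower. The median log2 fold of the 33 genes without Kc 1 was 0.11.

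**Figure D3:**
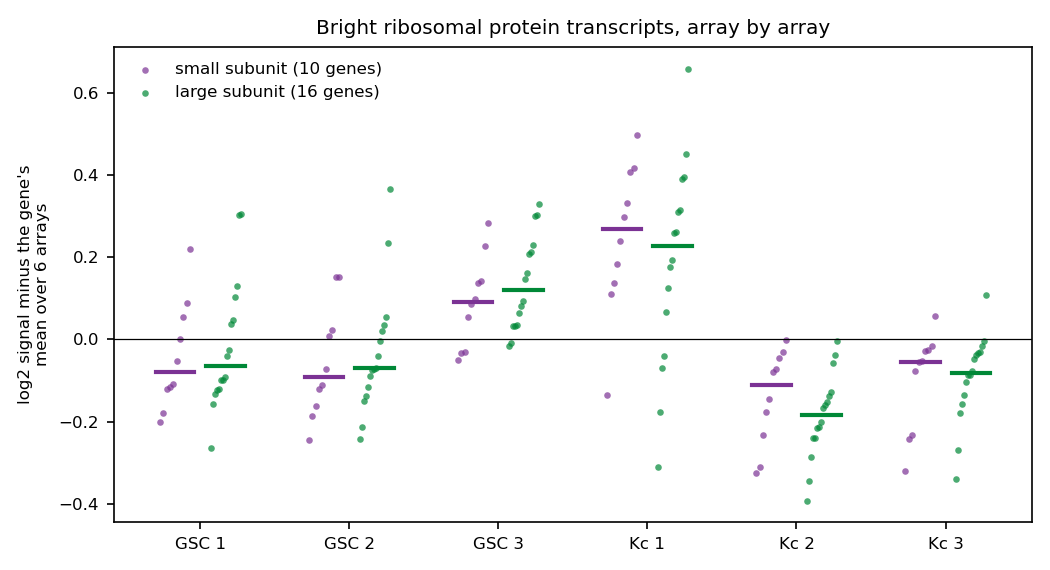
Log2 signal of each of the 26 bright genes minus its own mean over the 6 arrays, by array, with 10 small subunit genes in purple and 16 large subunit genes in green; horizontal bars are medians. The medians of both subunits are highest on Kc 1 (0.27 and 0.23) and next highest on GSC 3.

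The replicate spread of these genes was unequal between the groups. The median SD of the log2 signal over the 33 genes was 0.0925 in GSC and 0.215 in Kc, beside 0.203 and 0.242 for all probe sets and 0.107 and 0.136 for the other bright ones. It was 0.0973 and 0.237 for the small and 0.0808 and 0.193 for the large subunit. Of the 26 genes above 10000, 24 had their highest Kc signal on Kc 1, so the Kc SDs include a shift that most of them shared. The part of this array in the Kc SDs was not tested. The most even gene was RpL39, with 0.0304 in GSC and 0.0191 in Kc. The least even of the bright genes was RpL17 in Kc, at 0.454.

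The signals of the subunits were compared by their medians on each array. The median signal of the small subunit genes was 39172 ± 2573 in GSC and 40736 ± 6478 in Kc, and that of the large subunit genes 32482 ± 1676 and 33467 ± 6728 (SD, n = 3 arrays each). The median of the small subunit genes exceeded that of the large within each array, by 0.27, 0.25 and 0.29 log2 units in GSC against 0.22, 0.30 and 0.35 in Kc. The GSC values lay inside the range of the Kc values. Since the 2 medians are of different probe sets, their difference within an array is not a difference in RNA amount. Over the 26 bright genes alone, a set trimmed after the values were seen, it was 0.21, 0.22 and 0.17 in GSC and 0.26, 0.28 and 0.30 in Kc. There the GSC arrays lay below the Kc arrays, with median log2 folds of -0.04 for 10 small and 0.00 for 16 large subunit genes.

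The bright genes were less spread in level among themselves in GSC than in Kc. The SD of their log2 signals within an array was 0.35, 0.328 and 0.35 in GSC against 0.618, 0.46 and 0.5 in Kc. The brightest gene was 3.07, 2.7 and 2.54 times the dimmest in GSC, against 4.35, 3.62 and 3.28 times in Kc. The groups did not overlap on either measure, which a single scaling factor per array does not alter. Neither measure was taken for other probe sets, so the contrast is not read as particular to these genes. The same contrast read as folds gave the following, ordered by signals of different probe sets. The 8 brightest of the 26 genes (RpS7, RpS20, RpLP1, RpS28b, RpS30, RpL17, RpS26 and RpL32) had a median log2 fold of -0.20, with 6 below 0. The 8 dimmest (RpL28, RpL23, RpL39, RpS27A, RpL40, RpS12, RpLP0 and RpL36A) had a median of 0.25, with 7 above 0. Of all 13966 probe sets 7262 had folds above 0 and 6704 below, and of the 673 other bright ones 261 and 412. The dim end holds RpL23, RpL39 and RpL40, already given as higher at any fold, so it partly restates those genes.

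When each array was centred on the median of the 33 genes, a setting added with the data in view, differences among the genes were measured against the typical member. Relative to that median 9 genes were higher on all GSC than on all Kc arrays and 9 were lower, 54.5% of the 33 beside 42% of all probe sets centred in the same way (23.8% higher, 18.2% lower). Centring on the members' own median sets the balance of higher and lower among them and takes their shared shift out of each array, so nothing is read from these shares. Of the 12 small subunit genes 2 were higher and 5 lower, and of the 21 large subunit genes 7 were higher and 4 lower. RpS26 was 0.21, 0.25 and 0.17 log2 units above the median gene in GSC and 0.47, 0.45 and 0.46 above it in Kc. RpS21 went from 0.11, 0.19 and 0.13 above it in GSC to 0.20, 0.16 and 0.29 below it in Kc. In the limma fit on centred arrays RpS12 and RpS21 passed as higher beside RpL23, RpL24-like, RpL37-2 and RpL39. RpL17, RpS20, RpS26 and RpS30 passed as lower, while RpS29, RpL40 and RpLP0-like no longer passed. The centring limits this fit in the same way, and the share of all probe sets passing in it at any fold is not given. These passes are therefore listed and not counted as further evidence.

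Whether the genes as a group were higher in GSC depended on how the arrays were scaled. The median log2 fold of the 33 genes was 0.01 with the authors' scaling, -0.12 with scaling to the array median, 0.16 with quantile normalization and 0.45 with scaling to the hybridisation controls. The medians of all probe sets under these settings were 0.03, -0.05, -0.02 and 0.32. With the hybridisation controls 4 genes passed 2-fold, all upward (RpL37-2 at 1.40, RpL24-like at 1.21, RpL39 at 1.12 and RpL23 at 1.01). Of all 13966 probe sets, 2811 were called higher and 686 lower at 2-fold under this scaling. At any fold 11 of the 33 genes were higher and 0 lower. Quantile normalization gave 15 higher and 0 lower at any fold, and scaling to the median 5 higher and 4 lower. Shares of all probe sets at any fold are not given for these scalings, so nothing particular to these genes is read from the any-fold counts. 

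**Figure D4:**
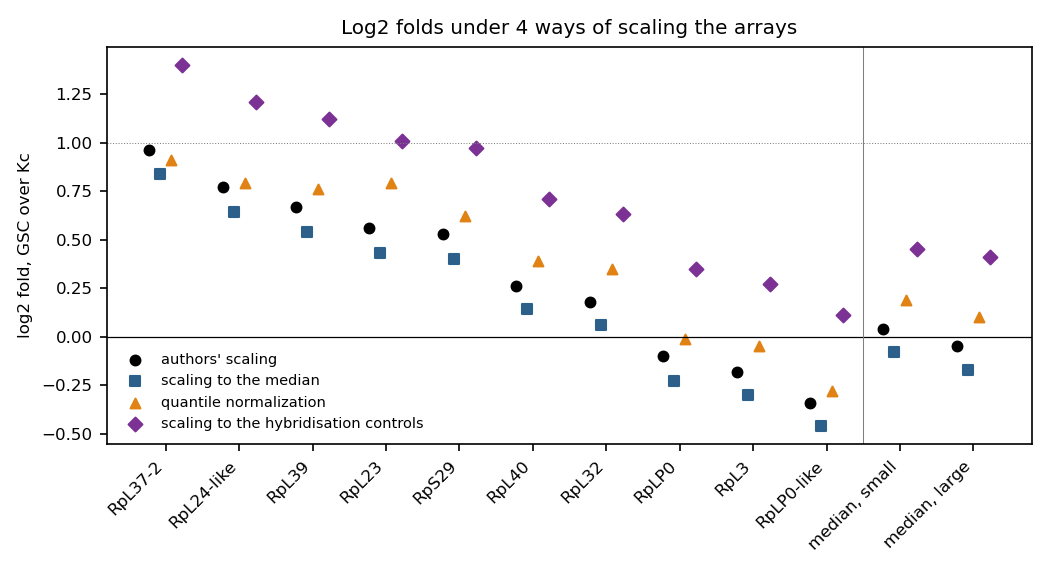
Log2 fold of GSC over Kc for 10 named genes and for the medians of the 12 small and 21 large subunit genes under 4 ways of scaling the arrays. RpL37-2, RpL24-like, RpL39, RpL23, RpS29, RpL40 and RpL32 are above 0 under all 4, whereas RpLP0, RpL3, RpLP0-like and both medians change sign.

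Other genes of the ribosome's production and use were taken from lists. Of 6 measured ribosome-associated proteins and elongation factors (10 listed), 1 was called higher and 1 lower, with a median log2 fold of -0.01, beside 20.5% of all 10844 genes called. The elongation factor subunit eEF1delta had 7487, 8544 and 7849 in GSC against 3181, 4773 and 3383 in Kc (log2 fold 1.09 ± 0.149, adjusted p = 0.000315). Its fold was below 2 with scaling to the median (0.96) and without Kc 1 (0.98). Tctp, a growth-related protein, had 10122, 9607 and 10109 against 30640, 25760 and 25657 (-1.45, adjusted p = 3.11e-06). The groups did not overlap for either gene. Rack1, a scaffold protein bound to the small subunit, was lower by a smaller step (-0.45, adjusted p = 0.0385), and its log2 fold was 0.00 with scaling to the hybridisation controls.

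Of 25 measured ribosome biogenesis genes (29 listed), 1 was called higher, 3 lower and 21 neither, with a median log2 fold of -0.11, and at any fold 1 was higher and 10 lower. Of all 10844 genes 20.5% were called, and 36.3% passed at any fold (21.9% higher, 14.4% lower). The lowest fold was that of pes, with 204.1, 411.0 and 338.1 in GSC against 1648, 1241 and 1067 in Kc (-1.96, adjusted p = 0.000163). In Drosophila this symbol names peste, a scavenger receptor gene, and not the pescadillo gene of large subunit assembly. It thus does not belong to biogenesis, although the counts and medians of the list include it. eIF6, which keeps the new large subunit from joining the small, had -1.30, and Nnp-1 had -1.10. A second, dimmer eIF6 probe set had -1.08 and did not pass (adjusted p = 0.112). Nop60B, the pseudouridine synthase gene, was higher (1.26, adjusted p = 0.00981) at a low signal of 236.2 ± 45.8 against 79.8 ± 35.6. The median of the list became 0.33 with scaling to the hybridisation controls, where 1 gene was called higher and 1 lower, and at any fold 3 were higher and 2 lower. The 1 called lower under this scaling was pes.

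Of 7 measured genes of RNA polymerase I and its initiation (10 listed), which transcribe the ribosomal RNA genes, 1 was called higher and 1 lower, and at any fold 4 were higher and 1 lower, beside the same shares of all genes. The any-fold count of 4 and 1 became 1 and 2 with scaling to the median, 2 and 2 with quantile normalization, 1 and 1 with a floor, 5 and 0 with scaling to the hybridisation controls, and 2 and 1 with the replicate block or without Kc 1. The subunit gene Polr1F had 506.3, 525.1 and 512.6 against 183.6, 225.4 and 229.4 (1.15, adjusted p = 0.000419), and Polr1H had 309.7, 343.5 and 329.1 against 837.5, 890.9 and 665.2 (-1.18, adjusted p = 0.000225). Neither gene had overlapping groups, and they differed in opposite directions. The catalytic subunit genes Polr1A (0.41, adjusted p = 0.0309) and Polr1B (0.47, adjusted p = 0.0263) were also higher at any fold, but passed in 8 and 7 of 17 alternatives. The 3 probe sets of the initiation factor gene Tif-IA disagreed, with log2 folds of 0.41, -0.75 and -0.66. The brightest, which was used, did not pass (adjusted p = 0.0572), and the others passed as lower at any fold (adjusted p = 0.0129 and 0.00438). The median log2 fold was 0.41. It was 0.29 with scaling to the median and 0.86 with scaling to the hybridisation controls, where 2 were called higher and 0 lower by limma.

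**Figure D5:**
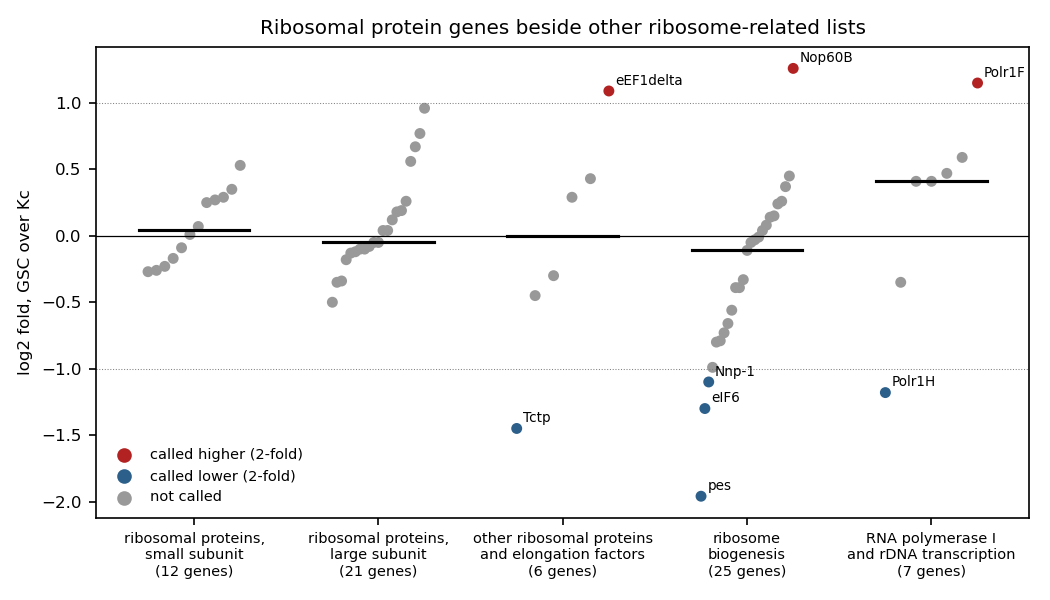
Log2 fold of GSC over Kc for the small and large subunit genes and for 3 further lists of ribosome-related genes; each point is a gene, coloured if called at an adjusted p under 0.05 and 2-fold, and black bars are medians. No ribosomal protein gene is coloured, whereas pes, eIF6, Nnp-1, Tctp and Polr1H lie below -1 and Nop60B, Polr1F and eEF1delta above 1. Of these, pes is a scavenger receptor gene that the biogenesis list included.

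Of the related copies left out of the 33 genes, 4 were measured. RpS5b had 28262, 29060 and 35089 in GSC against 834.6, 565.8 and 511.5 in Kc, and the log2 folds were 5.54 (RpS5b), 4.89 (RpL22-like), 4.46 (RpS10a) and 1.98 (RpS19b). Among the 33 general genes, the highest was 0.96.

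Few of the genes lie near each other in the genome. In the order of genes in the RefSeq table, RpS15 and RpLP2 had 4 genes between them, RpS20 and RpS30 had 9, RpS28a and RpL32 had 10, and RpL32 and RpS7 had 29. The log2 folds of these pairs were 0.01 and -0.10, -0.27 and -0.23, 0.27 and 0.18, and 0.18 and -0.17, none of which passed.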

How the data were processed

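The 3 GSC and 3 Kc arrays were used, and the Dpp-overexpressing ovaries of the design were not analysed here. The authors deposited linear signal intensities, 1 for each probe set of an array, made with MAS5, per the submitters' processing notes. Its release number is not given in the sources used here. All arrays had a trimmed mean signal of 500.1, so they were not normalized again. All 6 columns belonged to a sample.

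Of 14010 probe sets 44 controls were left out, which left 13966. One symbol was given for 12443 of these, several for 327 (2 of them naming a ribosomal protein gene beside another gene, not used) and none for 1196. All 33 genes matched RefSeq by identifier, with 0 symbols changed. Signals were tested as log2(signal + 37.9), the 25th percentile of all values, with limma 3.58.1 (R 4.3.3; lmFit, eBayes with trend and robust, two-sided, Benjamini-Hochberg over all probe sets). Folds of dim probe sets are understated on this scale. P-values measure the spread between these arrays, which may be technical, and the number of arrays limits the precision. The fit was tested on simulated data.

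The genes, lists and tests were chosen with earlier results of these data known. The naming rule took called genes, the 3 brightest and dimmest of each subunit, paralog pairs, genes with discordant probe sets and fixed key genes. Genes named otherwise were chosen after their values were seen, or to account for every member. Alternatives covered the pseudocount or floor, scaling, filter, variance prior, replicate block, fold minimum, left-out arrays and relatives.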

Additional observations from a re-analysis of the deposited data

How the results depend on the processing

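RpL23, RpL24-like, RpL37-2 and RpL39 kept their direction and an adjusted p under 0.05 in all 17 alternatives, with log2 folds of 0.43 to 1.01, 0.64 to 1.21, 0.84 to 1.40 and 0.54 to 1.12. RpS29 kept its call in 16 and lost it with the arrays centred on the members (adjusted p = 0.0971). Hybridisation control scaling moved the median log2 fold to 0.45 for all members, 0.45 for the small and 0.41 for the large subunit, and gave 4 members higher at 2-fold, and 11 higher and 0 lower at any fold. Over all 13966 probe sets it gave 2811 higher and 686 lower at 2-fold. Quantile normalization gave 15 higher and 0 lower, scaling to the median 4 lower, and centring on the members, chosen after the data were seen, 4 lower. Members lower at any fold fell from 1 to 0 with a floor, without trend and robust estimation and with the replicate block, and to 0 without the relatives ending in -like, which removes the gene itself. A fold of at least 1.5 gave 3 higher. Leaving out each array gave 0 to 1 members higher at 2-fold, 5 to 10 higher and 0 to 1 lower at any fold, and the 10 and the member at 2-fold came without Kc 1. Shares of all probe sets at any fold are not given for these settings, so the any-fold counts are not read as particular to the members.

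Scaling to the hybridisation controls moved all probe sets together, from a median log2 fold of 0.03 to 0.32. Of the members followed across settings, those with folds below 0 turned, except RpL10Aa (-0.31). Those that turned were RpL10Ab (0.40), RpL17 (0.10), RpL3 (0.27), RpL37-1 (0.34), RpL7-like (0.36), RpLP0 (0.35), RpLP1 (0.32), RpLP2 (0.35), RpS20 (0.19) and RpS7 (0.29). This scaling also turned RpLP0-like (0.11), Rack1 (0.00) and eEF1gamma (0.15), which were lower at any fold. Quantile normalization turned RpL10Ab (0.10), RpLP1 (0.03) and RpLP2 (0.00), and scaling to the median RpS28b (-0.05). Over the left-out arrays RpS28a ranged from -0.15 to 0.58, RpS28b from -0.03 to 0.18, RpL10Ab from -0.11 to 0.03, RpL37-1 from -0.22 to 0.05, RpL7-like from -0.15 to 0.04, RpLP0 from -0.21 to 0.07, RpLP1 from -0.27 to 0.06 and RpLP2 from -0.19 to 0.03.

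The biogenesis list had 0 called higher with the pseudocount at the median and with a floor, and 0 to 1 higher over the left-out arrays. With hybridisation control scaling it had 1 called lower, which was pes, not a biogenesis gene. The polymerase I list had 0 higher and 0 lower with the pseudocount at the median and 2 higher and 0 lower with hybridisation control scaling. The elongation factor list had 0 higher with scaling to the median and 0 to 1 over the left-out arrays. The cause of these changes was not tested.

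Replicate numbers did not pair the arrays, since deviations of same-numbered GSC and Kc arrays correlated at -0.0295, 0.0364 and -0.00703. With the replicate block 5 members were higher and 0 lower at any fold. The signals have no stated background, which limits what RpL10Aa and RpS28a can show.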
